A study of Mus musculus with 6 samples.

Results

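The lipid droplet coat and lipolysis genes examined here are 10 genes taken by their symbols, the perilipins *Plin2*, *Plin3*, *Plin4* and *Plin5*, the CIDE genes *Cidea*, *Cideb* and *Cidec*, the lipases *Pnpla2* and *Lipe*, and the lipase inhibitor *G0s2*. All 10 were among the 25403 genes of the count table, each in a single row, and all 10 passed the filter on low counts that left 14496 genes for testing. Poly(A) RNA was sequenced from the livers of 3 wild-type C57BL6/J mice (WT) and 3 mice with whole-body *Themis* knockout (*Themis*-KO), in which the loss is not confined to hepatocytes. All of the mice received the MASH diet, named AMYLIN liver NASH diet in the labels, which supplied 40% of energy as fat, 20% as fructose, and 2% cholesterol, for 3 months from an age of 10 to 12 weeks. The labels give no strain for the *Themis*-KO mice, and there was no chow-fed group, so every value below describes liver under this diet. The comparison asks how the droplet genes differ between these livers, in which the study examined steatosis after loss of THEMIS.

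Lipid droplets store triglyceride and cholesterol ester under a single layer of phospholipid that is covered by coat proteins. Perilipins occupy that surface and govern the access of lipases, whereas CIDE proteins sit where droplets touch and let lipid pass from the smaller to the larger one. Lipolysis runs in steps, with ATGL (encoded by *Pnpla2*) removing the first fatty acid of a triglyceride and hormone-sensitive lipase (*Lipe*) acting next, while G0S2 binds and inhibits ATGL. In hepatocytes PLIN2 is the main coat protein, CIDEB takes part in droplet growth and VLDL lipidation, and *Cidea*, *Cidec* and *Plin4* are best known from adipocytes and appear in steatotic liver.

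The sequences before the annotated starts of 4 members are shown because the results turn on these genes, the most abundant coat gene, the 2 clearest rises and the clearest fall. Each is the 250 bases before a RefSeq transcript start in GRCm38.p6, read 5′ to 3′ on the strand of the gene, and capitals mark the hexamer of nuclear receptor sites (AGGTCA, also read as TGACCT on the other strand) or a TATA core (TATAA). The windows are chr4:86670060-86670309 for *Plin2*, chr17:56109783-56110032 for *Plin4*, chr6:113435761-113436010 for *Cidec* and chr7:25390113-25390362 for *Lipe*, all on the reverse strand. *Cidec* and *Lipe* each have 2 starts in RefSeq. For *Cidec* the start at the outer end of the gene was taken, and for *Lipe* the inner start, since the other window lies within annotated exon. Gene counts do not separate the starts.
Plin2: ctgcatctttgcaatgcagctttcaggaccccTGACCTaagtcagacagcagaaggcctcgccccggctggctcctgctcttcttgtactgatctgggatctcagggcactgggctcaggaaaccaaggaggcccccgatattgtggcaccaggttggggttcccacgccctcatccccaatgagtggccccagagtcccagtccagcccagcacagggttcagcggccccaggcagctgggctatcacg
Plin4: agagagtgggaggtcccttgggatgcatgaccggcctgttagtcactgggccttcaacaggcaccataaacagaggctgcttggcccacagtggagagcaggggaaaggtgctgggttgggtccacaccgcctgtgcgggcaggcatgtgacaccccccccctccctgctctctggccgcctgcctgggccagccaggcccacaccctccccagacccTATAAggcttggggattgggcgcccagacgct
Cidec: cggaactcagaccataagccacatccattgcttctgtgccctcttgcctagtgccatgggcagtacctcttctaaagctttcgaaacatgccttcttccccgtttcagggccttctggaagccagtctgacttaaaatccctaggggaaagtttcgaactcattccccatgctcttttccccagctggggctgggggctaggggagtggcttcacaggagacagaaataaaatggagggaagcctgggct
Lipe: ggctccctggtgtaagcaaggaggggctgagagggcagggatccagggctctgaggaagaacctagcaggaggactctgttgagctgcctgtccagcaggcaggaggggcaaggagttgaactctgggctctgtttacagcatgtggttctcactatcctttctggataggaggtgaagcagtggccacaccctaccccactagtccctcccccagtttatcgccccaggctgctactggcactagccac

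The *Plin2* window held 1 hexamer, beginning 218 bases before the start, and *Plin4* held a TATA core 32 bases before its start. The *Cidec* and *Lipe* windows shown held neither set of letters. RefSeq had windows for 9 of the 10 members. A first window of *Plin5*, the neighbour of *Plin4*, held both, with the TATA core 27 and the hexamer 170 bases before the start. The *Cideb* window held a TATA core 172 bases before its start. All remaining windows of the members held neither. Over 32851 mouse windows of the same length, 14.0% held the hexamer and 22.8% the TATA core on either strand. An E-box (CACGTG) was in 6.02% of windows and in 1 of the members' windows, the *Lipe* window not shown, at 155 bases before that start. A cyclic AMP response element (TGACGTCA) was in 1.55% of windows and in 0 of the 12 windows of the members. A direct repeat of the hexamer with 1 base between the copies was in 0.0335% of windows and in 0 of the 12.

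Library totals ran from 20679642 to 25649767 gene counts. *Themis* did not separate the genotype labels. Its CPM, the count relative to library size after TMM scaling, was 8.07, 25.6 and 12.0 in WT 1, WT 2 and WT 3 and 8.62, 7.73 and 9.96 in *Themis*-KO 1, 2 and 3 in turn, with WT replicate 1 inside the range of the other group (adjusted p = 0.199, edgeR). The part of the gene that the allele removes is not given in the sources used here. Directions below therefore rest on the genotype as labelled. Values of 3 livers are always given in the order of replicates 1, 2 and 3. WT replicates 1 and 2 also stood apart from the other 4 livers in mitochondrial counts. *Gm28438*, a near-identical nuclear copy of *mt-Nd3*, took 96.6% and 96.8% of the counts of the pair in them and 2.2% to 3.26% elsewhere, a split called the mitochondrial type below. The labels number the livers of a group without saying what sets them apart. The p-values weigh the difference between the groups against the spread of these samples only.

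Among the 10 members, the coat genes *Plin4* and *Plin3* and the droplet fusion gene *Cidec* rose, and the lipase gene *Lipe* fell, in livers labelled *Themis*-KO at an adjusted p under 0.05. The coat gene *Plin2* and the lipase inhibitor gene *G0s2* did not pass, although their groups did not overlap. *Plin5*, *Cidea*, *Cideb* and *Pnpla2* overlapped between the groups. Of all genes tested, 4.97% rose and 4.14% fell, beside 3 and 1 of the 10 members. The groups did not overlap for 6 members (4 higher and 2 lower), against 34.6% of all genes. The median log2 fold change was 0.27 over the members and 0.0095 over all genes tested. In whole liver tissue, fewer cells of a type and less RNA per cell give the same counts and cannot be told apart.

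**Figure D1:**
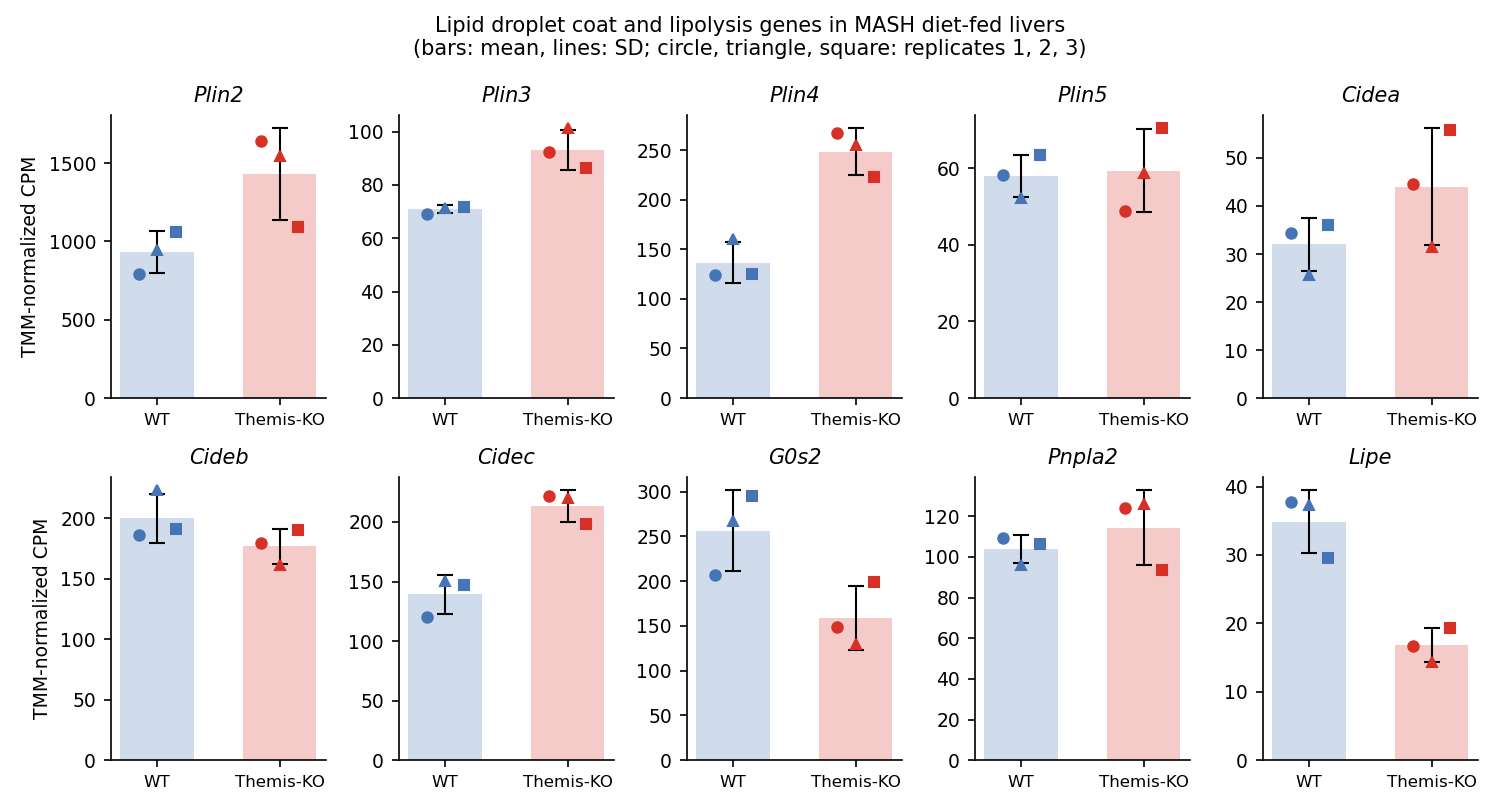
TMM-normalized CPM of the 10 members in each liver, with bars for the group mean, lines for the SD (n = 3) and a symbol for each replicate, on axes that start at 0. For *Plin2*, *Plin3*, *Plin4*, *Cidec*, *G0s2* and *Lipe* the 3 livers labelled *Themis*-KO lie wholly to one side of the 3 labelled WT, and replicate 3 of *Themis*-KO is the nearest to WT in each.

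*Plin4* encodes the largest perilipin, a protein with long repeats that coats small and growing droplets. The WT livers had 124, 160 and 125 CPM and the *Themis*-KO livers 268, 256 and 222. The lowest *Themis*-KO liver thus exceeded the highest WT liver, and the difference was 1.82-fold, or 0.87 on the log2 scale (SE 0.13, edgeR adjusted p = 0.0161). In absolute size this change was larger than that of 91.0% of the genes tested. *Plin4* lies on chromosome 17 of GRCm38 from 56100591 to 56109803, reverse strand.

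*Plin5* is its neighbour on the same strand, 1797 bases away, from 56111601 to 56117596. It encodes the perilipin that tethers droplets to mitochondria in oxidative tissues. Its CPM of 58.1, 52.4 and 63.4 in WT livers and 48.9, 58.8 and 70.4 in *Themis*-KO livers overlapped fully. The difference was 0.034 on the log2 scale with a 95% interval from −0.29 to 0.36 (adjusted p = 0.885, edgeR). Its sign turned in fits without WT replicate 2 (−0.036), without *Themis*-KO replicate 3 (−0.12) or with the mitochondrial type as a covariate (−0.095). The counts of *Plin4* per count of *Plin5* were 2.13, 3.06 and 1.97 in WT livers and 5.47, 4.34 and 3.16 in *Themis*-KO livers. This ratio, in which library scaling cancels, did not overlap between the groups.

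*Plin2*, the coat gene that is most abundant in hepatocytes and is widely used as a marker of droplet content, lies on chromosome 4 from 86648386 to 86670060, reverse strand. Its CPM was 792, 942 and 1059 in WT livers and 1644, 1548 and 1095 in *Themis*-KO livers. The groups were apart by only the step from WT replicate 3 to *Themis*-KO replicate 3. The log2 fold change of 0.62 (SE 0.18, 95% interval 0.21 to 1.02) did not pass over all genes (adjusted p = 0.0639, edgeR). It did pass without *Themis*-KO replicate 3 (adjusted p = 0.00797, edgeR), with total counts as the scale or no filter on low counts (adjusted p = 0.0437 and 0.0152, edgeR) and with DESeq2 (adjusted p = 0.00909), and the range over 13 alternatives was 0.00797 to 0.562. With *Plin2* set against *Plin5* within each library, the ratio was 13.6, 18.0 and 16.7 in WT livers and 33.6, 26.3 and 15.5 in *Themis*-KO livers, so *Themis*-KO replicate 3 fell inside the WT range.

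*Plin3* encodes a perilipin that moves between cytosol and nascent droplets. The gene is on chromosome 17 from 56277476 to 56292873, reverse strand, 159879 bases beyond *Plin5*. It showed a small shift with little spread, with a CPM of 69.1, 71.5 and 71.8 in WT livers and 92.2, 101 and 86.3 in *Themis*-KO livers. The WT livers were nearly level, and each *Themis*-KO liver was above them, by 0.40 on the log2 scale (SE 0.086, edgeR adjusted p = 0.0366).

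Among the CIDE genes, only *Cidec* passed the test. It encodes FSP27, which promotes the growth of large droplets, and lies on chromosome 6 from 113424634 to 113435760, reverse strand. The CPM was 120, 150 and 147 in WT livers and 222, 220 and 198 in *Themis*-KO livers. The *Themis*-KO values were close together and all above WT, a 1.53-fold difference, or 0.62 on the log2 scale (SE 0.11, edgeR adjusted p = 0.0249).

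*Cidea*, the CIDE gene of brown fat that is also induced in fatty liver, had the lowest mean CPM of the members in WT livers. It stood at 34.4, 25.7 and 36.0 CPM in WT livers and 44.6, 31.5 and 55.9 in *Themis*-KO livers, and *Themis*-KO replicate 2 lay within the WT range. The log2 difference of 0.46 had a 95% interval from −0.036 to 0.95 (adjusted p = 0.187, edgeR).

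*Cideb*, the CIDE gene of normal hepatocytes, had a CPM of 186, 223 and 191 in WT livers and 180, 161 and 190 in *Themis*-KO livers. The log2 fold change was −0.18 with a 95% interval from −0.42 to 0.070 (adjusted p = 0.294, edgeR). The gene is on chromosome 14 from 55754050 to 55758458, and 76.3% of its exon bases are shared with *Nop9* on the opposite strand. Whether counting used strand is not given in the sources used here, so the split of reads between these genes is uncertain, with 25556 counts for *Cideb* and 3316 for *Nop9* over the 6 livers. *Cidec* counts per count of *Cideb* were 0.648, 0.675 and 0.770 in WT livers and 1.24, 1.36 and 1.04 in *Themis*-KO livers. In each WT liver *Cideb* had more counts than *Cidec*, and in each *Themis*-KO liver fewer. Counts do not allow for exon length, which is greater for *Cidec*. Per kb of exon, the *Themis*-KO livers had 121, 108 and 128 CPM for *Cideb* and 120, 118 and 107 for *Cidec*, so this crossing did not hold per length.

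*Lipe*, encoding hormone-sensitive lipase, had the largest difference of the members. Its CPM was 37.7, 37.3 and 29.5 in WT livers and 16.7, 14.4 and 19.3 in *Themis*-KO livers, without overlap. The gene fell by 1.05 on the log2 scale (SE 0.14, edgeR adjusted p = 0.0131). The gene lies on chromosome 7 from 25379527 to 25398710, reverse strand. An antisense gene, *4732471J01Rik*, shares 15.6% of its exon bases but had only 58 counts in all libraries together, against 3487 for *Lipe*.

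*Pnpla2*, encoding ATGL, the lipase of the first step, is on chromosome 7 from 141455198 to 141460743, forward strand. Its CPM was 109, 96.2 and 106 in WT livers and 124, 126 and 93.4 in *Themis*-KO livers, where replicates 1 and 2 were above and replicate 3 below all WT livers. Between the groups the log2 difference was 0.14, with a 95% interval from −0.16 to 0.43 (adjusted p = 0.482, edgeR). *Lipe* counts per count of *Pnpla2* were 0.345, 0.388 and 0.278 in WT livers and 0.134, 0.114 and 0.207 in *Themis*-KO livers, again without overlap.

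*G0s2*, the inhibitor of ATGL, is a short gene on chromosome 1 from 193272161 to 193273217, reverse strand. Its CPM of 207, 268 and 295 in WT livers stood against 148, 130 and 199 in *Themis*-KO livers, with WT replicate 1 and *Themis*-KO replicate 3 nearly touching. The log2 difference of −0.69 (SE 0.19, 95% interval −1.12 to −0.26) did not pass over all genes (adjusted p = 0.0577, edgeR). It passed without *Themis*-KO replicate 3 (adjusted p = 0.00794, edgeR), without a filter on low counts (adjusted p = 0.00891, edgeR) and with DESeq2 (adjusted p = 0.00483), with a range over 13 alternatives of 0.00483 to 0.399. *Pnpla2* counts per count of *G0s2* were 0.529, 0.360 and 0.361 in WT livers and 0.836, 0.973 and 0.469 in *Themis*-KO livers, so the lipase was higher relative to its inhibitor in 2 of the 3 *Themis*-KO livers and within the WT range in *Themis*-KO replicate 3.

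**Figure D2:**
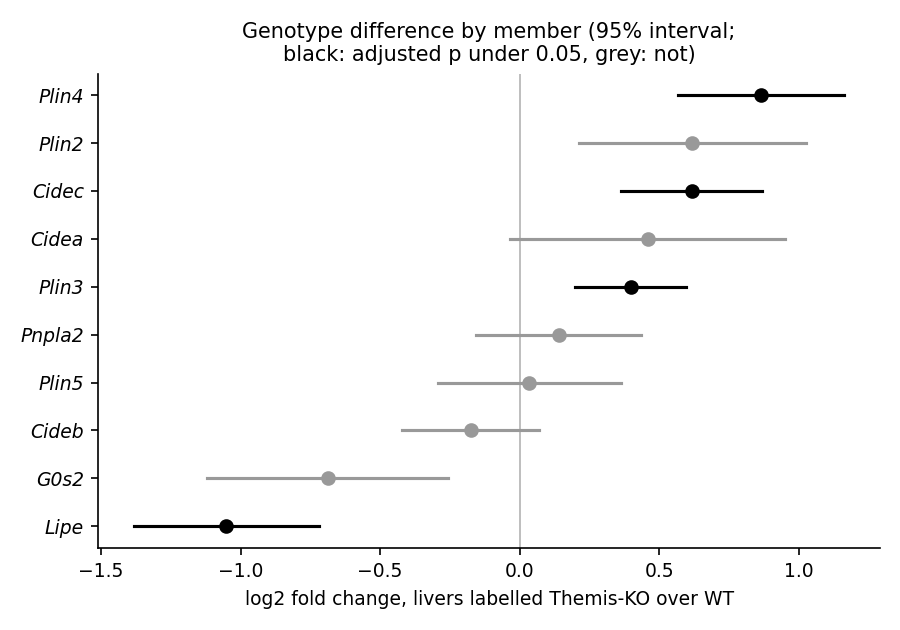
Log2 fold change of each member, livers labelled *Themis*-KO over WT, with its 95% interval from the fit over all genes, and black for an adjusted p under 0.05. *Lipe* (−1.05) and *Plin4* (0.87) lie at the ends, and the intervals of *Plin5*, *Pnpla2*, *Cideb* and *Cidea* include 0.

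The 6 members whose groups did not overlap shared a feature of the livers. In each of the 6, *Themis*-KO replicate 3 was the *Themis*-KO liver nearest to WT, as it was for 63.7% of the 5021 genes without overlap over the whole table. The 4 calls also depended on single livers. Without *Themis*-KO replicate 1, 0 of the 10 passed, and the adjusted p from edgeR was 0.0741 for *Plin4*, 0.105 for *Cidec*, 0.119 for *Plin3* and 0.0637 for *Lipe*. None passed either without *Themis*-KO replicate 2 or without WT replicate 1, *Plin4* alone passed without WT replicate 2 (adjusted p = 0.0335), and all but *Plin3* passed without WT replicate 3, where *Plin3* had an adjusted p of 0.0728, all from edgeR. Without *Themis*-KO replicate 3, *Plin2* and *G0s2* passed too, for 4 higher and 2 lower. Each of these fits had 4 or 5 higher members and 2 lower ones at an unadjusted p under 0.05. With the mitochondrial type as a covariate, 0 members passed by edgeR, while 3 higher members and 2 lower ones had an unadjusted p under 0.05. The log2 fold changes of that fit were 0.99 (SE 0.19) for *Plin4*, 0.38 (SE 0.14) for *Plin3*, 0.54 (SE 0.17) for *Cidec* and −0.81 (SE 0.17) for *Lipe*, each with a larger SE than without the covariate. In that fit 1 WT liver remains to be compared within a type, so this difference between the mice and the genotype label cannot be told apart. An exact two-sided permutation test of 3 livers against 3 gave p = 0.1, the smallest that it allows, for each of the 6 members without overlap.

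Per length of exon, the members covered a wide range of levels, in CPM per kb of all annotated exon of the gene (union of GENCODE vM21 transcripts, which may be longer than the transcripts used in liver). In livers labelled WT, *G0s2* and *Plin2* led, with means of 294 and 265 and overlapping livers. *Cideb* (134) and *Cidec* (75.0) came next, each apart from its neighbours in the order. *Pnpla2* (34.4), *Cidea* (28.7), *Plin5* (27.8) and *Plin4* (23.6) followed, and neighbours among these 4 overlapped. *Plin3* (18.7) and *Lipe* (5.92) came last, each below every liver of the gene before.
In livers labelled *Themis*-KO the order of the means differed at the top and in the middle. *Plin2* led with 407, apart from *G0s2* at 183, and *Cidec* at 115 overlapped *Cideb* at 119. *Plin4*, the eighth in WT livers, had 43.0 CPM per kb and overlapped *Cidea* (39.5) and *Pnpla2* (37.9), while *Plin3* (24.6, overlapping *Plin5* at 28.5) and *Lipe* (2.86) stayed last.

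**Figure D3:**
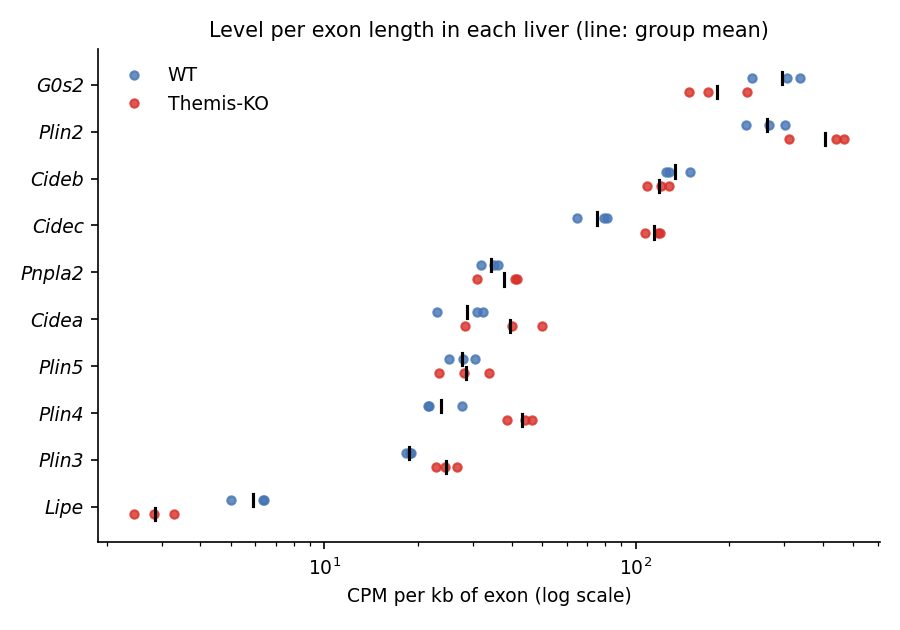
CPM per kb of exon for each member in the 3 livers labelled WT (blue) and the 3 labelled *Themis*-KO (red), on a log axis, ordered by the WT mean, with a line at each group mean. *G0s2* and *Plin2* are the highest in both groups and *Lipe* is the lowest, and their order at the top is exchanged between the groups.

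Across the 6 livers, the Pearson correlation of log2 CPM between pairs of *Plin2*, *Plin3*, *Plin4* and *Cidec* ran from 0.87 to 0.97, and that of each with *Lipe* from −0.98 to −0.91. These values carry the difference between the groups, share the scaling of 6 libraries and are given as a description. After the group means were removed, the pairs among the 4 ran from 0.44 (*Plin3* with *Plin4*) to 0.81 (*Plin2* with *Cidec*), and those with *Lipe* from −0.81 (*Plin3*) to −0.04 (*Plin4*). For *Plin2* the genes most alike over the 6 livers were *Igsf8*, *Gsr* and *Diaph3*, with r of 0.999, 0.998 and 0.997, and 538 genes (3.71%) had r over 0.95. For *Cidec* they were *Cytip*, *BC029722* and *Dbf4*, with r of 0.997, 0.996 and 0.996, and 377 genes (2.60%) had r over 0.95. Correlations this high were thus common over so few livers.

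Other genes of droplet metabolism mostly did not pass. Of 17 further droplet proteins and lipases, 16 were tested, 0 rose and 1 fell, with a median log2 fold change of −0.049. With DESeq2 1 rose and 2 fell, and at an unadjusted p under 0.05 from edgeR these were 1 and 4. The gene that fell was *Aadac*, a lipase of the endoplasmic reticulum that takes part in mobilizing triglyceride for VLDL, at 287, 292 and 263 CPM in WT livers and 180, 189 and 211 in *Themis*-KO livers (log2 fold change −0.53, SE 0.095, adjusted p = 0.0251, edgeR). *Abhd5*, the coactivator of ATGL, had 31.0, 29.9 and 36.8 CPM in WT livers and 39.1, 37.4 and 30.2 in *Themis*-KO livers, a log2 difference of 0.13 (adjusted p = 0.524, edgeR) that became −0.049 with the mitochondrial type as a covariate. *Hilpda*, a droplet protein that inhibits ATGL and is known as a hypoxia- and fatty acid-induced gene, had the largest positive difference of the list. Its CPM was 2.98, 2.73 and 3.90 in WT livers and 17.5, 9.15 and 3.40 in *Themis*-KO livers. *Themis*-KO replicate 3 lay within the WT range, and the log2 difference of 1.64 (SE 0.52, adjusted p = 0.0806, edgeR) did not pass.

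Of 16 genes of triglyceride synthesis and droplet formation, 15 were tested and 0 passed with edgeR, with a median log2 fold change of −0.081. At an unadjusted p under 0.05, 3 were higher and 2 lower with edgeR, and with DESeq2 2 rose and 2 fell after adjustment. *Soat1*, a cholesterol esterifying enzyme, had the largest positive difference, with 6.92, 7.29 and 10.6 CPM in WT livers and 12.9, 15.3 and 11.8 in *Themis*-KO livers (log2 0.68, adjusted p = 0.0626, edgeR). *Agpat2*, an acyltransferase of triglyceride synthesis, had the largest negative one, with 247, 268 and 213 CPM in WT livers and 137, 128 and 218 in *Themis*-KO livers (log2 −0.59, adjusted p = 0.0990, edgeR).

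Of 10 transcription factors known to act on droplet genes, all were tested, 0 rose and 1 fell with edgeR (0 and 4 at an unadjusted p under 0.05, and 0 and 2 with DESeq2). The median log2 fold change was −0.19. The one that fell was *Ppara*, the nuclear receptor that drives fatty acid oxidation genes. Its CPM was 129, 118 and 122 in WT livers and 79.98, 78.8 and 99.1 in *Themis*-KO livers, without overlap (log2 fold change −0.52, SE 0.11, adjusted p = 0.0345, edgeR). *Pparg*, the nuclear receptor of adipocyte differentiation that activates *Cidec*, *Cidea* and *Plin4*, had 18.2, 36.0 and 24.2 CPM in WT livers and 32.2, 27.1 and 26.2 in *Themis*-KO livers. These ranges overlapped, with a log2 difference of 0.13 (SE 0.23, adjusted p = 0.728, edgeR) whose sign turned to −0.076 without WT replicate 1. *Ppard* had the largest positive difference of the list, 0.21 on the log2 scale (adjusted p = 0.333, edgeR).

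Of 12 PPAR target genes outside the droplet, 1 rose and 2 fell with edgeR, with a median log2 fold change of −0.14. With DESeq2 3 rose and 4 fell, and at an unadjusted p under 0.05 from edgeR 4 were higher and 4 lower. *Fabp4*, a fatty acid carrier of adipocytes and macrophages, rose from 32.2, 25.2 and 37.2 CPM in WT livers to 64.6, 61.3 and 50.3 in *Themis*-KO livers (log2 fold change 0.90, SE 0.16, adjusted p = 0.0246, edgeR). *Cyp4a10* and *Acot1*, hepatocyte targets of PPARA in fatty acid omega-oxidation and acyl-CoA hydrolysis, fell by 1.21 and 0.59 on the log2 scale, without overlap (adjusted p = 0.0266 and 0.0416, edgeR). *Pdk4*, a kinase that restrains glucose oxidation in fasting, had 13.7, 11.0 and 21.7 CPM in WT livers and 149, 85.2 and 17.2 in *Themis*-KO livers. As for *Hilpda*, *Themis*-KO replicates 1 and 2 were high and replicate 3 lay within the WT range, and the log2 difference of 2.44 (SE 0.67, adjusted p = 0.0596, edgeR) did not pass. *Aadac*, *Ppara*, *Fabp4*, *Cyp4a10* and *Acot1* did not pass without *Themis*-KO replicate 1 or 2 or without WT replicate 1 or 2, and *Acot1* and *Ppara* did not pass without WT replicate 3 either. The adjusted p from edgeR in these fits ran from 0.0637 to 0.148. Without *Themis*-KO replicate 3 all 5 passed, as did *Hilpda*, *Pdk4*, *Soat1* and *Agpat2*, with adjusted p from 0.00204 to 0.0301 (edgeR).

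**Figure D4:**
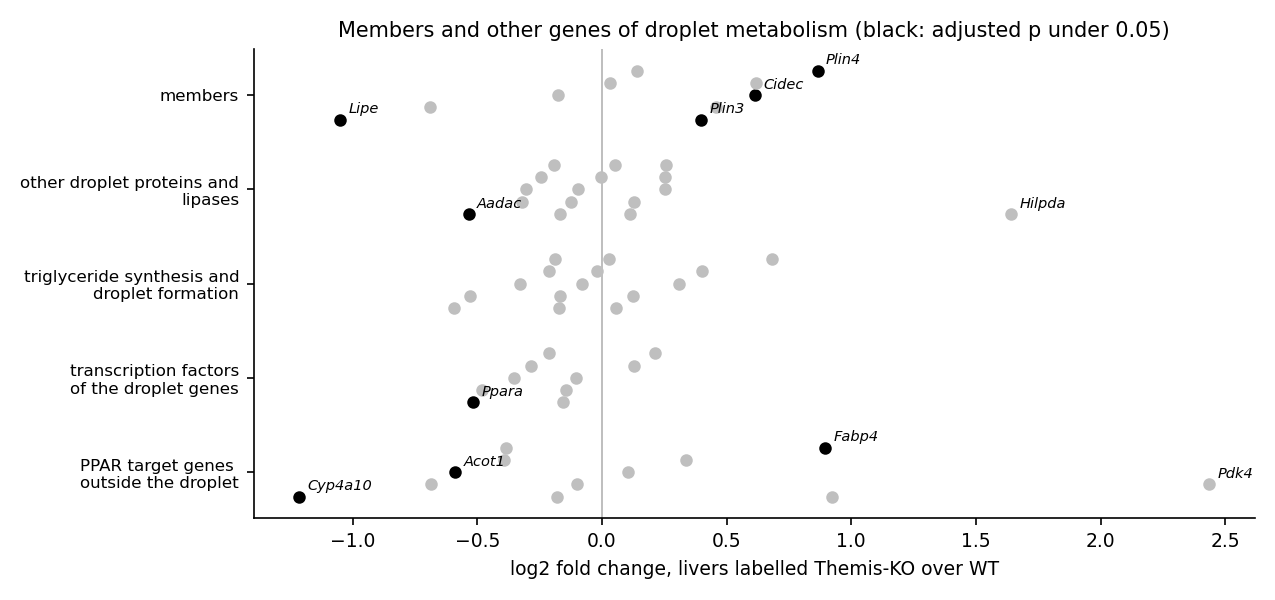
Log2 fold change, livers labelled *Themis*-KO over WT, of the tested genes in the members and 4 further lists, each point a gene and black for an adjusted p under 0.05. Points are spread vertically within a list only for legibility, and most genes of the further lists lie between the members *G0s2* (−0.69) and *Plin4* (0.87) without passing the test.

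Several members are genes of adipocytes. Among the 8 adipocyte markers, *Plin1*, *Ucp1* and *Adipoq* were at or near 0 in these livers, whereas *Cfd* and *Adrb3* were not and were lower in *Themis*-KO livers. *Plin1*, the perilipin of adipocytes, had 1 count in each liver labelled WT and 0 in each labelled *Themis*-KO, under the floor of 3 counts. *Ucp1* and *Adipoq* were at 0 or under 0.08 CPM in every liver. *Lep* and *Retn* were not found under these symbols in the count table and could not be tested. Only *Cfd* and *Adrb3* of the 8 adipocyte markers were tested. *Cfd*, encoding adipsin (complement factor D), fell by 4.10 on the log2 scale (SE 0.47, edgeR adjusted p = 0.00936), from 129, 72.0 and 34.4 CPM in WT livers to 4.97, 3.95 and 4.77 in *Themis*-KO livers. Without *Themis*-KO replicate 1 its adjusted p from edgeR was 0.0506. *Adrb3*, a catecholamine receptor of adipocytes, had 5.91, 5.42 and 7.69 CPM in WT livers and 2.38, 2.54 and 4.81 in *Themis*-KO livers (log2 −0.98, adjusted p = 0.0718, edgeR). The summed CPM of the adipocyte markers was 42.2 to 135 in WT livers and 6.62 to 9.58 in *Themis*-KO livers, nearly all of it from *Cfd* and *Adrb3*.
Markers of other cell types moved with the groups. Of 12 macrophage markers, 5 rose, and their summed CPM was 368 to 643 in livers labelled WT and 647 to 843 in livers labelled *Themis*-KO. The other 7 did not pass, and 2 of them were negative. These were *Marco* (log2 −1.29) and *Timd4* (log2 −0.63), with adjusted p = 0.248 and 0.239 (edgeR). *Marco* was at 52.9 CPM in WT replicate 3 and at 15.4 or less in every other liver. Of 11 hepatic stellate cell markers, 6 rose, with summed CPM of 445 to 507 and 676 to 730. Of 9 cholangiocyte markers, 8 were tested and 1 rose, with sums of 168 to 208 and 400 to 630. Of 10 endothelial markers, 1 rose, with sums of 280 to 317 and 320 to 357. Of 12 hepatocyte markers, 0 rose and 4 fell, with sums of 62449 to 71735 and 53896 to 56014. Without *Themis*-KO replicate 1, 0 of the macrophage, stellate cell, endothelial and hepatocyte markers passed with edgeR, with 8, 7, 2 and 0 higher and 0, 0, 0 and 6 lower at an unadjusted p under 0.05. Among these 5 lists no marker was at 0 in all livers. The part of these shifts in the differences of *Plin2*, *Plin3*, *Plin4*, *Cidec*, *G0s2* and *Lipe* was not tested.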

How the data were processed

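Paired-end libraries of poly(A) RNA from 6 livers were mapped by the authors to GRCm38 with STAR 2.7.8a and quantified with RSEM 1.3.3, and cutadapt 2.3 is named in the submitters' processing notes. The authors deposited these estimated counts, 1 expected count per gene and liver without normalization, whole in the table. RSEM divides reads that fit several genes. The annotation release is not given in the sources used here, and coordinates come from GENCODE vM21 (GRCm38), which held 25353 of the 25403 genes.

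Counts were rounded and analysed in R 4.3.3 with edgeR 4.0.16: filterByExpr, which removed 10907 genes, TMM scaling, and glmQLFit and glmQLFTest with genotype as the only term, and Benjamini-Hochberg adjustment over 14496 genes at a threshold of 0.05. Standard errors come from the F statistic, and intervals cover 95%. CPM carry no prior count, and correlations used log2 CPM with a prior count of 2. Alternatives were RLE factors, total counts alone, no filter, DESeq2 1.42.0, a minimum of 10 counts per liver, the replicate block and each liver left out. Adjustment for the mitochondrial type was chosen after seeing the data. The members and gene lists were chosen with earlier results of these data known. Named were all members, *Themis*, *Abhd5*, *Pparg*, *Ppara*, *Adipoq*, *Lep*, *Plin1* and *Ucp1*, every gene of the other pathway lists that passed, the gene with the largest rise and fall in each, and the 3 genes most correlated with *Plin2* and with *Cidec*. *Cfd*, *Adrb3*, *Marco*, *Timd4*, *Nop9*, *4732471J01Rik*, *mt-Nd3*, *Retn* and *Gm28438* were named after their values were seen. On simulated counts of 14295 genes with 200 changed, edgeR recovered 79 of 100 changed by 1 and 97 of 100 changed by 2 on the log2 scale, with 13 of 189 calls on unchanged genes. No library was a copy of another (chi-square of at least 9.12 per degree of freedom for each pair). Figures were drawn with matplotlib 3.10.9.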

Additional observations from a re-analysis of the deposited data

How the results depend on the processing

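The direction of 9 of the 10 members held under all 13 alternatives. Scaling by total counts alone moved the median log2 fold change of all genes from 0.0095 to 0.15, and gave 1449 genes higher and 387 lower against 721 and 600, so that 78.9% of calls were higher against 54.6%. Without a filter on low counts 1212 and 967 genes passed, and with DESeq2 1273 and 1084, and each of these gave 2 members lower (*Lipe* and *G0s2*) and 4 higher. With the mitochondrial type as a covariate, 0 genes were higher and 3 lower, and 0 members passed in either direction. With the replicate block, 17 genes were higher and 45 lower and 0 members passed in either direction, with an unadjusted p under 0.05 for 5 higher and 2 lower members. After the group means were removed, same-numbered livers had r of 0.00028, −0.24 and −0.16, with a mean of 0.066 for other numbers. Removing the group means ties the value for other numbers to that for same numbers, so it is no separate comparison. The paper speaks of 3 pairs of livers without saying whether the numbers mark them. With 3 livers in a group these correlations cannot decide whether the livers are paired. With each liver left out, genes higher numbered between 8 and 2228 (*Themis*-KO replicate 1 or 3 removed), genes lower from 12 to 2039, members higher from 0 to 4 and members lower from 0 to 2. Reversed were *Plin5* (−0.12 without *Themis*-KO replicate 3, −0.036 without WT replicate 2, −0.095 with the mitochondrial type), *Abhd5* (−0.049 with the mitochondrial type) and *Pparg* (−0.076 without WT replicate 1, and up to 0.43 without WT replicate 2). The members had between 335 and 38719 counts in a liver.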
